A study of Mus musculus with 14 samples.

Results

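The sarcoglycans and their partners in the dystrophin-associated complex were examined as 9 of 21887 protein-coding genes of the mouse genome: Sgca, Sgcb, Sgcd, Sgce, Sgcz, Sspn, Dag1, Dtna and Utrn. They were chosen by the peaks of 12 lists from chromatin immunoprecipitation and sequencing (ChIP-seq), with the peaks of Sgcz already known to be many, so the values below are descriptions and carry no test. Each list came from 1 library and gives positions on GRCm38, with no read counts, so depth is unknown. A gene was given every peak with at least 1 base in its body or in the 5 kb on either side. The libraries were made from Sca1+CD45- heart cells, taken by magnetic sorting out of C57BL/6 mice aged 6 to 8 weeks. The Damage groups came from mice injected intraperitoneally and once with paraquat at 20 mg/kg, which generates superoxide in tissues, and were immunoprecipitated for BMI1 (3 libraries) or for H2AK119ub (3 libraries). The Homeostasis groups came from mice given PBS alone and were immunoprecipitated for the same targets (3 libraries each). The labels also describe culture of such cells; they do not say if the immunoprecipitated cells were cultured, pooled over mice or taken from a separate mouse for each library. Peak lists measure no expression, so the labelled cell type could not be checked against its markers.

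Dystrophin links the actin cytoskeleton of a muscle fibre to the extracellular matrix through a membrane complex. Dystroglycan, encoded by Dag1, binds laminin outside the cell and dystrophin or its relative utrophin inside. The sarcoglycans and sarcospan form a subcomplex in the membrane that steadies this link, and loss of sarcoglycans causes limb-girdle muscular dystrophy, often with cardiomyopathy. BMI1 belongs to Polycomb repressive complex 1, whose catalytic partners attach ubiquitin to histone H2A (H2AK119ub), a mark of repressed genes.

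Of the 9 genes, 8 held at least 1 homeostasis peak, 6 held a BMI1 peak in all 3 Homeostasis libraries, and none held a peak after paraquat. A peak in at least 1 Homeostasis list was present in 19.3% of all protein-coding genes and in 66.2% of the longest of 10 length classes, and 2 of the 8 genes, Sgcb and Sgce, rest on 1 peak each from the longest list. The 6 genes with BMI1 peaks were Sgcz, Sgcd, Utrn, Dtna, Sspn and Dag1. The same 6 held H2AK119ub peaks in at least 2 of 3 Homeostasis libraries, and Sgcz, Sgcd, Utrn and Dtna held them in all 3. Over all protein-coding genes, a BMI1 peak in 2 or more Homeostasis libraries was present in 7.34% and in all 3 in 4.45%, and an H2AK119ub peak in 2 or more was present in 9.63% and in all 3 in 2.92%. Long genes held peaks more often: in the longest class (2189 genes of 109 kb or more) the shares for 2 or more libraries were 33.7% for BMI1 and 41.8% for H2AK119ub. Sgcz, Sgcd, Utrn and Dtna belong to that class. All 6 Homeostasis lists had a peak in 4 of the 9 genes, these same 4, against 2.55% of all protein-coding genes and 13.2% of the longest class.

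Together the 9 genes span 3284 kb with their flanks, and the number of peaks expected for that length was computed per library from its peaks on each gene's chromosome. Damage BMI1 libraries held 0 peaks there where 0.0219 per library were expected, and Homeostasis BMI1 libraries held 10, 14 and 11 peaks in replicates 1 to 3 where 6.31, 9.62 and 5.67 were expected. The mean was 11.7 ± 2.08 peaks (SD, n = 3), and the ratio of counted to expected was 1.66 ± 0.25. Every Homeostasis BMI1 library thus exceeded the number for its length, by 1.45 to 1.94 times. Damage H2AK119ub libraries also held 0 peaks, with 0.0336 expected per library, and Homeostasis H2AK119ub libraries held 7, 21 and 14 peaks, where 2.78, 16.7 and 9.88 were expected. Their mean was 14.0 ± 7.0 peaks (SD, n = 3), and the ratio was 1.73 ± 0.686. The highest ratio, 2.52, was that of Homeostasis H2AK119ub replicate 1, the shortest list with 2000 peaks, and without it the mean ratio was 1.34. The ratios above are means over libraries. With peaks summed over the 6 Homeostasis lists, the ratio was 1.51 at the 9 genes, 0.879 over all protein-coding genes and 0.97 over the longest class. Sgcz carried much of the excess of the 9 genes: it made up 35.1% of their span and 51.9% of their 77 homeostasis peaks, and the other 8 genes held 37 peaks where 32.7 were expected, a ratio of 1.13.

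**Figure D1:**
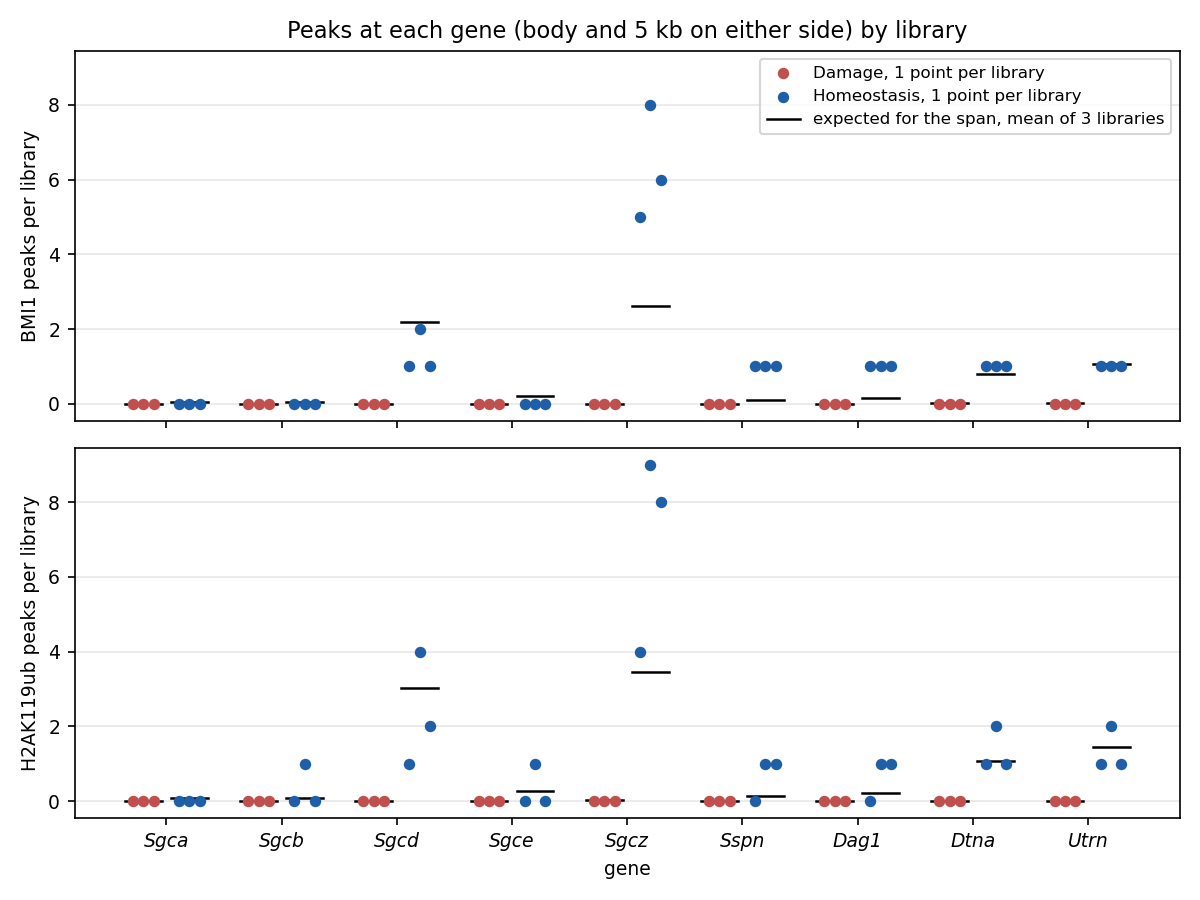
Peaks per library (y axis, count) at each of the 9 genes (x axis) for BMI1 (upper panel) and H2AK119ub (lower panel), with 1 point per library, Damage left of Homeostasis, and a black line at the mean number expected for the gene's span. All Damage points lie at 0, and among the Homeostasis points those of Sgcz, 4 to 9 peaks per library, lie highest.

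After paraquat, 0 of 217 peaks over 6 lists lay at the 9 genes, and at homeostasis 77 of 39615 peaks did (0.194%, exact 95% binomial interval 0.153 to 0.243%). That interval takes peaks as independent, although the 77 recur over lists in 27 regions, so it is too narrow. By library the share at homeostasis ran from 0.156% to 0.35%. A count of 0 among 217 peaks allows a share of up to 1.38%, a limit of 3 counts that covers counting error only. At the length of the 9 genes 0.166 peaks were expected over all 6 Damage lists, so at this length of list a difference in share between the treatments was not detectable. Of all protein-coding genes, 62 (0.283%) held a peak in any Damage list. Each of the 6 Damage lists held 19 to 68 peaks, against 2000 to 13487 in each Homeostasis list, and that gap moved with treatment across the whole genome.

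Sgcz encodes zeta-sarcoglycan, a relative of delta-sarcoglycan, and lies at chr8:37517840-38661705. No Damage library held a peak in it, and the Homeostasis libraries held 5, 8 and 6 BMI1 peaks and 4, 9 and 8 H2AK119ub peaks in replicates 1 to 3. The counts of the antibodies overlap, and the lowest of the 6 values is that of the shortest list. With 40 peaks over 6 lists against 18.2 expected, Sgcz held 2.2 times the number for its length, 2.43 times for BMI1 and 2.02 times for H2AK119ub. In the longest class, 6 of 2189 genes, Sgcz among them, held as many peaks, and 273 (12.5%) had a ratio as high. The 40 peaks fell into 13 regions when peaks that share a base were merged. Of these regions 3 held a peak of all 6 lists: chr8:37860384-37860519, chr8:38037134-38037237 and chr8:38175481-38175584. The regions that start at 38037134 and 38175481 were each 104 bp wide. In both, the peak centres of the 6 lists lay within 3 bp, so peaks of both antibodies stood almost exactly on top of each other. The genome sequence under the peaks was not at hand, so repeats there were not checked.

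A further 2 regions of Sgcz, at chr8:38645497-38645604 and chr8:38647136-38647284, held peaks of 5 lists each. They lie 16.2 and 14.5 kb from the high-coordinate end of the gene, and a single BMI1 peak at chr8:38646993-38647093, from replicate 1, sits beside the second of them. With peaks within 1 kb of each other joined, Sgcz had 11 sites, 4 of them in all 6 lists, and neighbouring sites were 1.39 to 182 kb apart with a median of 101 kb. The low-coordinate 161 kb of the gene held none. A region at chr8:37678406-37678507 held H2AK119ub peaks of replicates 2 and 3 and no BMI1 peak. Of the 13 regions, 5 came from a single list, among them an H2AK119ub peak at chr8:38213197-38213297 on the tRNA gene n-TLcag2. That was the sole peak at the 9 genes that touched another annotated gene. The strand of Sgcz, Sgce and Dtna is not in the tables used here, so their ends are given by coordinate only.

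**Figure D2:**
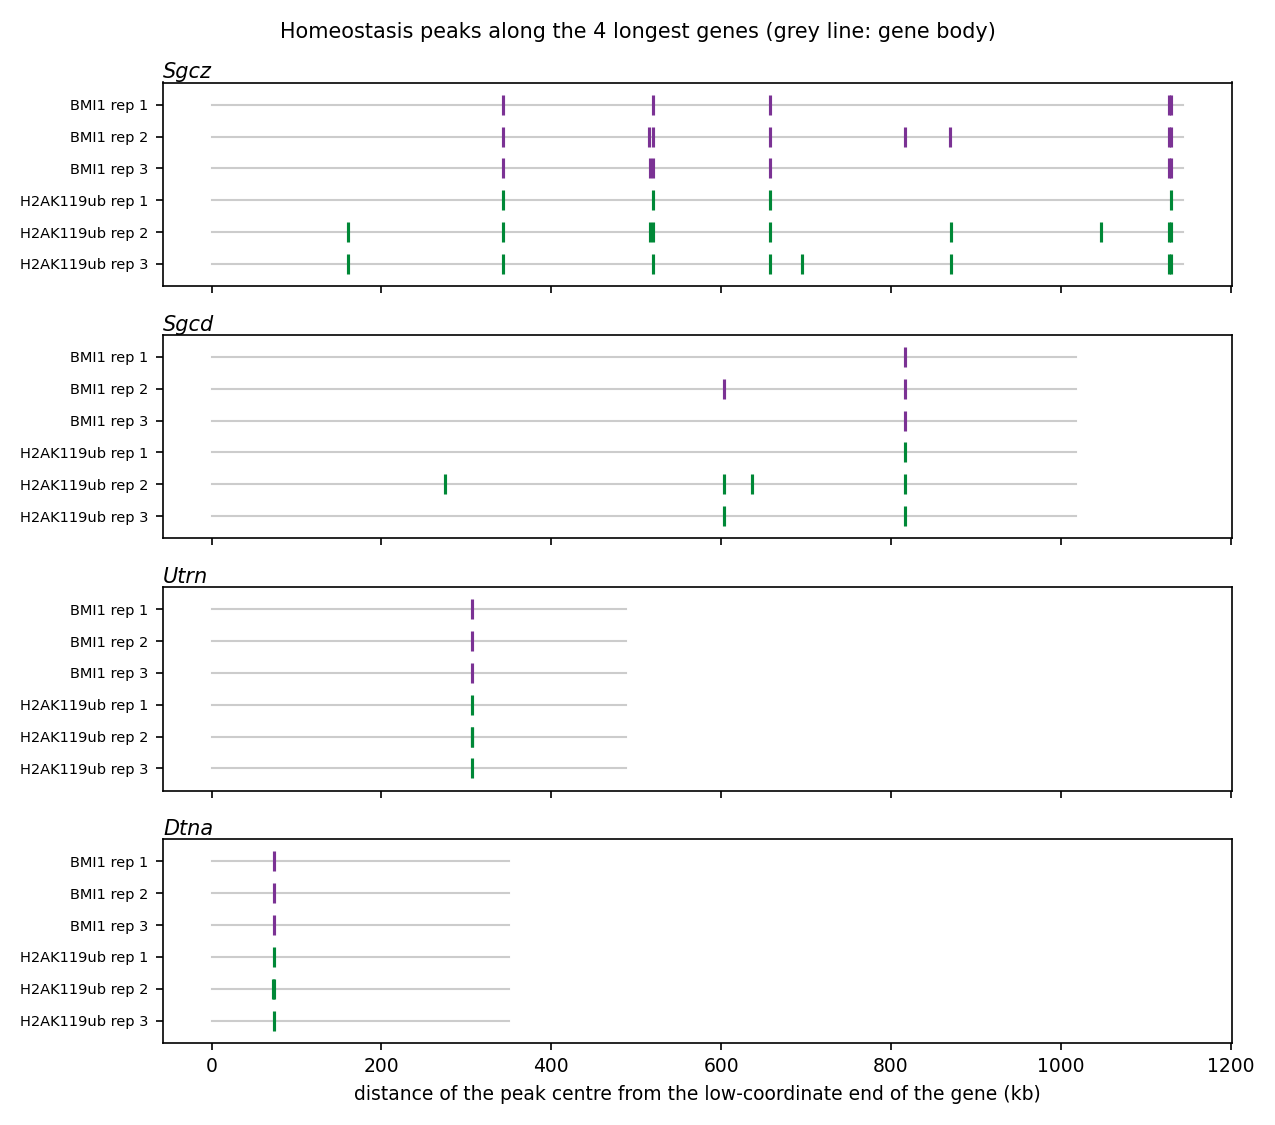
Position of each homeostasis peak along the 4 longest genes, with 1 row per library, the x axis giving the distance in kb from the low-coordinate end of the gene, purple ticks for BMI1, green ticks for H2AK119ub and a grey line for the gene body. Ticks line up in columns across libraries and antibodies, as at 343, 519 and 658 kb in Sgcz and 816 kb in Sgcd, while Utrn has its ticks at 307 kb alone.

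Genes whose counts over the 12 lists lay closest to those of Sgcz were named by the smallest Euclidean distance of log2(peaks + 1). They were Ppargc1a (distance 0.383), a coactivator of mitochondrial genes, Gpc6 (0.501), a glypican, Robo1 (0.824), a guidance receptor, Rbfox1 (0.944), a splicing regulator, and Ctnna3 (1.02), an alpha-catenin of the intercalated disc. They held 37 to 49 homeostasis peaks and none after paraquat, and were 662 to 1574 kb long. Ppargc1a had as many peaks as Sgcz, 40, in a gene of 662 kb against 1144 kb, and its ratio to the expected number was 3.9.

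Sgcd encodes delta-sarcoglycan, which assembles with beta-sarcoglycan at the core of the subcomplex, and lies at chr11:46971077-47989451. Damage libraries held no peak in it, and Homeostasis libraries held 1, 2 and 1 BMI1 peaks and 1, 4 and 2 H2AK119ub peaks. It is nearly as long as Sgcz, 1018 kb, but held 11 peaks where 15.6 were expected, a ratio of 0.704 that 44.4% of the longest class reached. The low total went with strong recurrence at a single place: the region chr11:47787104-47787214 held a peak of all 6 lists, with centres within 10 bp. A region at chr11:47574302-47574418 held a BMI1 peak of replicate 2 and H2AK119ub peaks of replicates 2 and 3, and the 2 other regions came from H2AK119ub replicate 2 alone. RefSeq lists a start of Sgcd at chr11 position 47379325 on the minus strand, far inside the annotated gene. Relative to that start the region in all 6 lists lay 408 kb upstream, still inside the annotated gene.

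The 3 other sarcoglycans had hardly any peaks. Sgca, which encodes alpha-sarcoglycan, a subunit largely restricted to striated muscle (chr11:94962777-94976327), had none in any of the 12 lists. Sgcb, which encodes beta-sarcoglycan (chr5:73632749-73647737), and Sgce, which encodes epsilon-sarcoglycan, a subunit found well beyond striated muscle (chr6:4674350-4747204), had none after paraquat and a single homeostasis peak each, both from H2AK119ub replicate 2, the longest list with 13487 peaks. The Sgcb peak at chr5:73643624-73643724 lay 4.06 kb downstream of the start of the gene. These genes are 13.6, 15.0 and 72.9 kb long, and 0.358, 0.382 and 1.4 peaks were expected over the 6 Homeostasis lists, so counts of 0 and 1 are close to those for their length.

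Sspn encodes sarcospan, a small membrane protein that binds the sarcoglycans, and lies on the plus strand at chr6:145931873-145965225. Damage libraries held no peak in it, each of the 3 Homeostasis BMI1 libraries held 1, and Homeostasis H2AK119ub libraries held 0, 1 and 1 in replicates 1 to 3. The library without a peak was the shortest list. The 5 peaks lay where 0.734 were expected, a ratio of 6.81. Of the 2189 genes in its length class, 65 (2.97%) held as many peaks and 81 (3.7%) had a ratio as high. The ratio counts recurrence: the 5 peaks, 1 from each of 5 lists, form a single site with peaks within 1 kb joined. They fell into 2 regions that do not touch, chr6:145932738-145932838 (BMI1 replicate 2) and chr6:145932857-145933030 (the other 4 lists), and together cover 293 bp. Of the 22 sites at the 9 genes this was the nearest to a gene end, 1.01 kb downstream of the first start that RefSeq lists. A second listed start lies at chr6 position 145934122, so the site falls between both starts. The 250 bases before each are printed because the site lies beside them, with every CpG dinucleotide in capitals. None of the 39832 peaks touched either window.
Sspn before the first start, chr6:145931623-145931872, plus strand: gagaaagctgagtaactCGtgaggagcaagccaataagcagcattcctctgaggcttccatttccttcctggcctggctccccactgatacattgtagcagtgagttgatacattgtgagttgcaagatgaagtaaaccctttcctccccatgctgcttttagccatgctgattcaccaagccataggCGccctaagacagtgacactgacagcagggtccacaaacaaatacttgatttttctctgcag
Sspn before the second start, chr6:145933872-145934121, plus strand: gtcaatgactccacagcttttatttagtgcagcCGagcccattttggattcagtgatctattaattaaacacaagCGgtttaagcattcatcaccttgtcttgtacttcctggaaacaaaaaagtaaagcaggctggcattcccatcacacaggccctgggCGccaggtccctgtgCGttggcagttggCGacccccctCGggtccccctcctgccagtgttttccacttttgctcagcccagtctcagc

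Dag1 encodes the precursor of alpha- and beta-dystroglycan and lies on the minus strand at chr9:108204861-108263977. Damage libraries held no peak in it, each of the 3 Homeostasis BMI1 libraries held 1, and Homeostasis H2AK119ub libraries held 0, 1 and 1, the same pattern as Sspn and again with none in the shortest list. The 5 peaks, against 1.1 expected, all lay in chr9:108211100-108211218, with centres within 18 bp. The ratio of 4.53, which again counts 1 site called in 5 lists, was reached by 89 of 2189 genes (4.07%) of its length class. As many peaks were held by 172 genes (7.86%) of that class. In contrast to Sspn the site was at the other end of the gene, 6.3 kb inside its 3′ boundary and 52.7 kb from the nearest listed start. The promoter of Dag1 is rich in CpG, the kind of sequence at which Polycomb proteins are known to gather in mammals, and is printed for comparison with those of Sspn and of Sgca, the gene with no peak. No peak of any list touched these windows.
Dag1, chr9:108263816-108264065, minus strand: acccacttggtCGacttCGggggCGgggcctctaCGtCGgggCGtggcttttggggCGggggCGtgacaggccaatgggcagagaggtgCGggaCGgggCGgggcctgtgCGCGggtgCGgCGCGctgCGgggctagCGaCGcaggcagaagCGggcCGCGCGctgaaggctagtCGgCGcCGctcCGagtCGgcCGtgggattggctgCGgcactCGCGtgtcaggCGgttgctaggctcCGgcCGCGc
Sgca, chr11:94976328-94976577, minus strand: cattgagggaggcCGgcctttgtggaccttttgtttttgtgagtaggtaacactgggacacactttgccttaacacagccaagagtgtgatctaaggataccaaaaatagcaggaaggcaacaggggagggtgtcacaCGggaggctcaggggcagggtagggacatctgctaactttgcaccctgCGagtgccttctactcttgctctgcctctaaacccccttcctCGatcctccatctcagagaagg
The windows shown hold 36 CpG in Dag1, 4 in Sgca, and 2 and 6 in Sspn, and the median over 32851 promoters was 6. As many as 36 CpG were present in 2.58% of promoters, and 2 or more, the number of the first Sspn window, in 81.2%. The other windows listed for the 9 genes held 21 CpG (Dag1, first start), 14 (Sgcb), 9 (Sgcd) and 2 (Utrn). GGGCGG, the GC box, was searched on both strands and is found in 32.7% of promoters; it was present in both Dag1 windows and in those of Sgcb and Sgcd, and some CpG lie within it. TATAAA, searched likewise and found in 12.4%, was present in the Sgcb window alone. RefSeq promoters of GRCm38.p6 were at hand for 6 of the 9 genes.

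Utrn encodes utrophin, a relative of dystrophin that occupies its place in non-muscle cells and at the neuromuscular junction, and lies on the minus strand at chr10:12382187-12869888. Damage libraries held no peak in it, and Homeostasis libraries held 1, 1 and 1 BMI1 peaks and 1, 2 and 1 H2AK119ub peaks, a total of 7 where 7.54 were expected. All 7 lay within 439 bp (chr10:12688897-12689335) of a gene of 488 kb, 173 kb downstream of the listed start. The peaks formed 3 regions that do not overlap: the first held BMI1 replicate 3 with H2AK119ub replicates 2 and 3, the second BMI1 replicate 2 with H2AK119ub replicates 1 and 2, and the third BMI1 replicate 1 alone. Counted by overlap, Utrn therefore had no region in all 6 lists, and with peaks within 1 kb joined it had a single site in all 6.

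Dtna encodes alpha-dystrobrevin, which binds dystrophin and the syntrophins, and lies on chromosome 18 from 23310006 to 23659719. Damage libraries held no peak in it, and Homeostasis libraries held 1, 1 and 1 BMI1 peaks and 1, 2 and 1 H2AK119ub peaks, the same counts as Utrn, where 5.61 were expected in all (ratio 1.25). A region of 120 bp (23383503 to 23383622) held a peak of all 6 lists, with centres within 18 bp. The 7th peak, from H2AK119ub replicate 2, lay at 23382331 to 23382431, close beside it. Utrn, Dtna and Sgcd lay above the medians of the longest class, 2 peaks and a ratio of 0.53, with many genes beside them. They are also longer than the median gene of the class, 185 kb. With peaks summed over the class the ratio was 0.97, and Utrn (0.929) and Sgcd (0.704) lay below it. As many peaks were held by 20.8%, 20.8% and 10.1% of that class, and ratios as high by 36.9%, 28.4% and 44.4%.

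**Figure D3:**
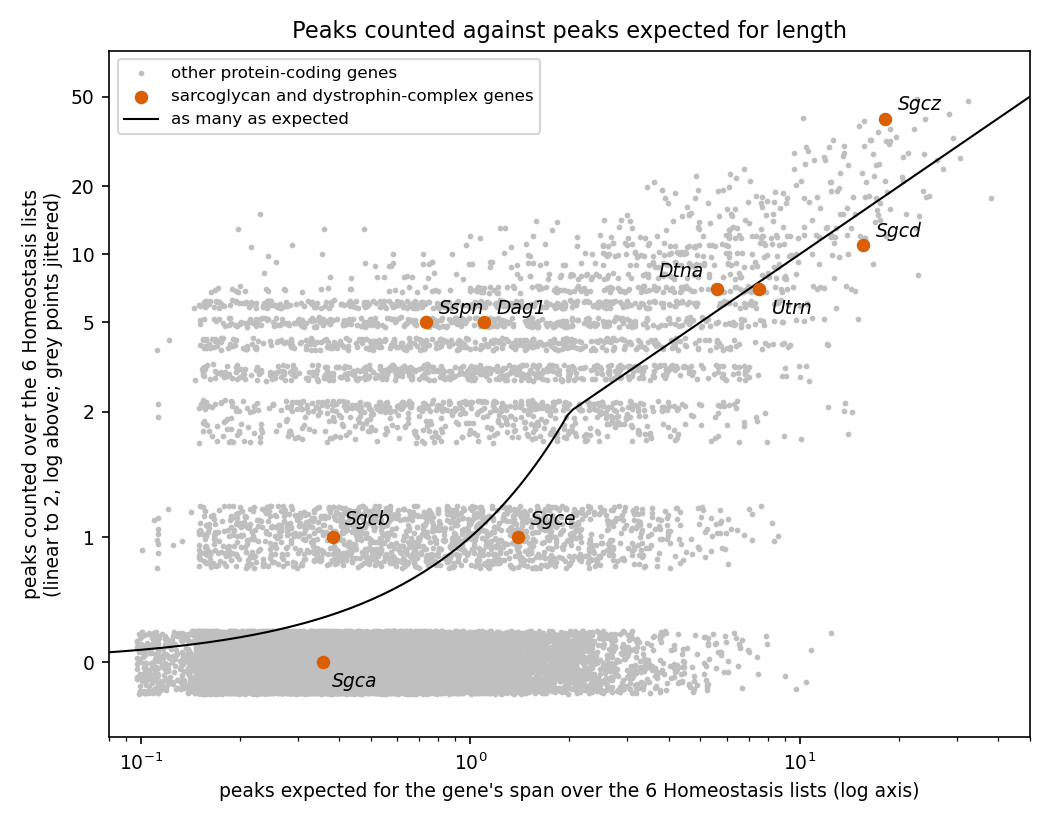
Peaks counted over the 6 Homeostasis lists (y axis, count, linear to 2 and logarithmic above) against the number expected for the gene's span (x axis, count, logarithmic), with 1 point per protein-coding gene, the 9 genes in orange and a black line where both are equal. Sgcz (40 against 18.2), Sspn (5 against 0.734) and Dag1 (5 against 1.1) lie above the line, Utrn and Dtna lie near it, and Sgcd (11 against 15.6) lies below it.

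All 77 peaks at the 9 genes lay in gene bodies, and none lay in the flanks of 5 kb. The peak closest to a gene end on the inside was that of Sspn, 0.915 kb from it, and the closest on the outside lay 24.7 kb from Dtna. Merged by overlap over the 6 Homeostasis lists, the 77 peaks formed 27 regions, of which 15 (55.6%, exact 95% binomial interval 35.3 to 74.5%) held peaks of 2 or more lists and 5 (18.5%, 6.3 to 38.1%) of all 6. Over the whole genome 17229 regions gave 50.0% and 7.21%. The intervals take regions as units and cover counting error only, and both intervals hold the genome's value. Both antibodies were present in 14 of the 27 regions (51.9%, 31.9 to 71.3%), against 43.1% of all regions. Of the 15 regions in 2 or more lists, 14 held both antibodies (93.3%, against 86.3% of such regions over the genome), the exception being the H2AK119ub region of Sgcz at chr8:37678406-37678507. Where all 6 lists had a peak, the mean BMI1 centre and the mean H2AK119ub centre were 1.67 bp apart (median of 5 regions), against 4.0 bp over the 1242 such regions of the genome. Of the 77 peaks, 75 were 101 bp wide, and the widest had 106 bp, so width told the peaks apart no more than the deposited score did.

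**Figure D4:**
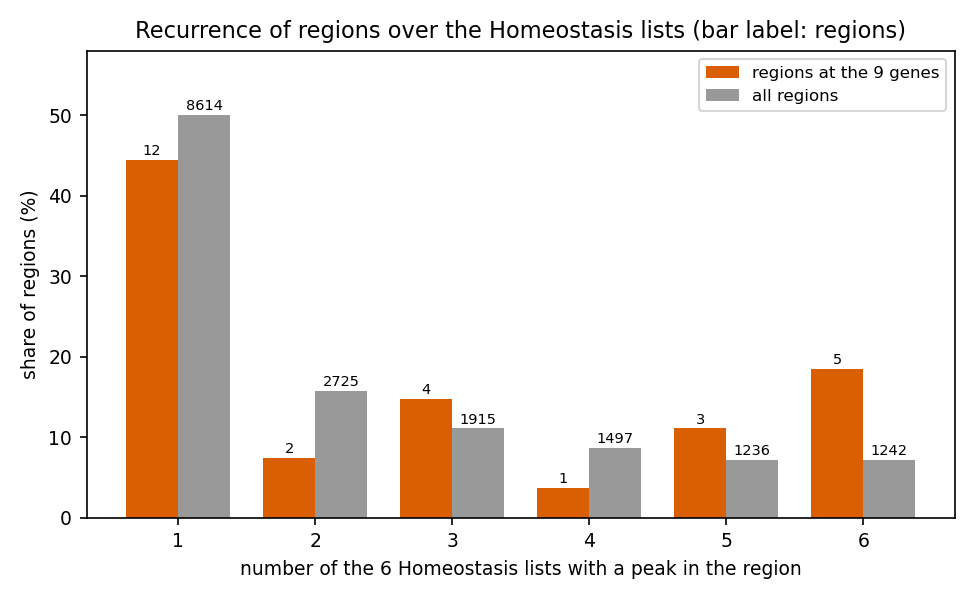
Share of regions (y axis, %) by the number of the 6 Homeostasis lists with a peak in them (x axis), for the 27 regions at the 9 genes (orange, left) and all 17229 regions (grey, right), with the number of regions above each bar. Among the regions at the 9 genes 12 came from a single list and 5 from all 6.

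Of the 12 regions found in a single list, 6 were from Homeostasis H2AK119ub replicate 2, the longest list, which gave 62.4% of such regions over the genome. A further 1 was from H2AK119ub replicate 3, and 5 were from BMI1 replicates 1 and 2. The share of peaks at the 9 genes that lay in regions of 5 or 6 lists was 38.1% in Homeostasis H2AK119ub replicate 2 and 85.7% in replicate 1, beside 18.2% and 78.9% of all peaks of these lists. The length of a list thus moved with how recurrent its peaks were, at the 9 genes and over the genome, and the part of list length in the recurrence at the 9 genes was not tested.

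Other genes of the complex had fewer peaks for their length. Of 39 genes that encode further subunits, partners and the enzymes that glycosylate dystroglycan, 4 held a BMI1 peak and 8 an H2AK119ub peak in 2 or more Homeostasis libraries, beside 7.34% and 9.63% of all protein-coding genes. Of the 39, 11 belong to the longest class, where these shares were 33.7% and 41.8%. The list held 66 homeostasis peaks where 106 were expected, a ratio of 0.625, with a median of 0 peaks per gene over 6 lists, against 5 for the 9 genes and 0 for all protein-coding genes. The 21 further subunits and partners held 54 of these peaks, against 86.1 expected, and the 18 glycosylation genes held 12, against 19.6 expected. Long genes weighed most in the sum: 22.6 of the 106 peaks were expected at Dmd and 13.9 at Sntg1. The counts of genes moved when a library was left out, in part because a peak was then required in both that remained. The 4 were 2 without BMI1 replicate 1 and 1 without BMI1 replicate 2, and the 8 were 2 without H2AK119ub replicate 2 or without replicate 3. Ank3, which encodes ankyrin-G, an adaptor of membrane and cytoskeleton that binds dystrophin, was the single gene of the list with a peak in all 6 Homeostasis lists, 2, 2 and 1 BMI1 peaks and 2, 4 and 2 H2AK119ub peaks.

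Dystrophin itself (Dmd, chrX:82814664-85205050) held 0 BMI1 peaks and 1 H2AK119ub peak, from replicate 2, in the Damage lists. In the Homeostasis lists it held 1, 1 and 0 BMI1 peaks and 0, 6 and 5 H2AK119ub peaks, 13 in all where 22.6 were expected for its 2390 kb. Its BMI1 peaks came to 0.212 times the expected number and its H2AK119ub peaks to 0.838 times, with the groups of the antibodies overlapping. Sntb1, which encodes beta-1-syntrophin, held 0, 3 and 0 BMI1 and 0, 4 and 2 H2AK119ub peaks at homeostasis, 2.34 times the number for its length, and Nos1, neuronal nitric oxide synthase, held 4 peaks, 2.57 times that number. Sntg1, which encodes gamma-1-syntrophin, held 7 peaks where 13.9 were expected. Ank2, which encodes ankyrin-B, held 7 where 9.14 were expected. Among the glycosylation genes, Pomgnt2, an enzyme that acts early on the laminin-binding sugar chain of dystroglycan, held 1 BMI1 and 2 H2AK119ub peaks where 0.391 were expected. Lamc1, a laminin chain, held 1 homeostasis peak, and 30 of the 39 genes had none, among them Dtnb (beta-dystrobrevin) and Lama2 (a laminin chain of muscle).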

How the data were processed

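The submitters' processing notes name Bowtie2 (no version), HOMER 4.8 and the build GRCm38. For peak calling, neither settings nor the role of Input are given in the sources used here. As deposited by the authors, the data are 12 lists of peaks, 1 per library, with other columns of start and end, and a deposited score that is 1 for every peak and was not used. Of 39832 peaks, 143 lay outside the assembled chromosomes and were left out of the expected numbers and the regions. They remain in the totals of 217 Damage and 39615 Homeostasis peaks. The 2 Input libraries were not analysed here.

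Gene boundaries, names and promoters came from RefSeq tables of GRCm38.p6, in which all 72 listed symbols matched. Peaks were counted by gene and library. The number expected was the library's peaks on the chromosome times the gene's span (length plus 5 kb on either side) over the range of the chromosome covered by genes and peaks. Chromosome lengths, the planned denominator, were not at hand. Regions were peaks merged over the Homeostasis lists with an overlap of 1 bp or more. Binomial intervals are exact (Clopper-Pearson). Members and lists were chosen with earlier results of these data known, so no test was made. Named genes were all members, list genes with a homeostasis peak in 2 or more libraries of an antibody, the 5 nearest to the member with most peaks, and up to 3 most recurrent regions per member; other regions, and Lamc1, Dtnb and Lama2, were named after their values were seen. Some genes of the lists are not reported here by name. Counting was checked on made-up peaks. Python 3.11.15, numpy 2.4.6, pandas 2.3.3, scipy 1.17.1 and matplotlib 3.10.9 were used.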

Additional observations from a re-analysis of the deposited data

How the results depend on the processing

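No paired analysis was possible because the results come from no test. Of 84 alternative values for 10 results, 74 lay within the spread of the libraries, the counting interval or 1.5 times the reported count. Windows of 0 or 10 kb, the peak centre in place of any base, peaks within 1 kb counted once, peaks on other genes left out and an expected number from all chromosomes changed the 9 genes' values no further than that. Without Sgcz the mean at homeostasis was 5.33 BMI1 and 7.0 H2AK119ub peaks per library. The ratio to the expected number was then 1.2 for BMI1, from 1.66, and 1.27 for H2AK119ub, from 1.73. The change for H2AK119ub lay within the wide spread of its libraries (SD 0.686). With regions in 2 or more lists only, 93.3% held both antibodies. A rise is set by construction, since regions of 1 list cannot hold both, but its size is not. Of the 39 other genes, 1 had a BMI1 peak and 2 an H2AK119ub peak in 3 of 3 libraries. With a library left out, a peak was required in both that remained, a stricter rule than 2 of 3. The counts then ran from 1 to 3 for BMI1 and from 2 to 8 for H2AK119ub. By the same rule, leaving out a library left 6 of the 9 genes with BMI1 peaks and 4 to 6 with H2AK119ub peaks. Damage peaks at the 9 genes stayed at 0. Leaving out Damage libraries was chosen after seeing the data. Lists of 19 to 68 peaks cannot show presence or absence at genes of this length. Chromosome length as denominator was not run.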

Other observations

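Marker genes of heart cell types, and of leukocytes, which selection against CD45 would remove, were counted in the same way, and 0 of these 24 genes had a peak in a Damage list. At homeostasis, 5 of 5 endothelial genes, 3 of 6 stromal genes, 2 of 5 cardiomyocyte genes, 1 of 4 smooth muscle genes and 0 of 4 leukocyte genes had a peak in at least 1 list, beside 19.3% of all protein-coding genes. Endothelial genes held 23 peaks where 4.71 were expected for their length and stromal genes 13 where 3.23 were expected. Cardiomyocyte genes held 13 where 9.75 were expected and smooth muscle genes 5 where 2.53 were expected. Leukocyte genes, among them Ptprc, which encodes CD45, held 0 where 4.3 were expected. A peak in all 6 Homeostasis lists was present in Pdgfra, a receptor of cardiac fibroblasts (7 peaks), in Emcn, an endothelial sialomucin (12 peaks), and in Ryr2, the calcium release channel of cardiomyocytes (12 peaks). The share was 2.55% of all protein-coding genes and 13.2% of the longest class, to which Ryr2 belongs. Ryr2 held 1.42 times the number for its length, a ratio that 25.4% of that class reached. Pdgfra held 7 of the 13 stromal, Emcn 12 of the 23 endothelial and Ryr2 12 of the 13 cardiomyocyte peaks. These totals thus rest largely on single genes. The lists are short, the peaks of a gene recur over libraries, and these counts carry no test.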
